A study of Mus musculus with 6 samples.

Results

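The 9 genes described here mark oligodendrocytes, their progenitors and myelin: Olig1, Olig2, Sox10, Pdgfra, Cspg4, Gpr17, Mbp, Mag and Mog. They were taken by gene symbol alone, and all 9 have a row among the 24346 gene symbols of each library. The series compared mRNA from mouse brains labelled embryonic day 17.5, with 3 libraries in each of 2 groups. Mice of the first group carry the label miR-124a-1/2 DKO, a double knockout of a pair of genes that make a neuronal microRNA. Mice of the second group, labelled control, have the genotype miR-124a-1+/-, so that controls are heterozygotes and not wild type. The labels name no strain or litter, do not give the state of miR-124a-2 in the controls, and do not say whether the libraries came from separate embryos. The p-values then measure only the spread between these libraries, which may be technical.

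Oligodendrocytes are the glia that wrap axons of the central nervous system in myelin. Their progenitors are marked by the transcription factors Olig1, Olig2 and Sox10, the growth factor receptor Pdgfra and the proteoglycan Cspg4 (NG2). Committed precursors pass through a stage marked by the receptor Gpr17 and then make the myelin proteins Mbp, Mag and Mog. In the mouse brain, progenitors appear before birth and most myelin is formed after it. In the mouse retina, axons carry no myelin and oligodendrocytes are normally absent.

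Levels are given as FPKM, the fragments of a gene per kilobase of its transcript and per number of mapped fragments, which allows levels to be compared between genes per length. Relative depth ranged from 0.956 to 1.24, with DKO replicate 1 set to 1, and rows of short RNAs held 1.76% to 6.36% of the summed FPKM, the most in control replicate 3. Marker genes went against the label of embryonic brain in both groups. The 13 photoreceptor markers summed to between 16724 and 18721 FPKM per library. The forebrain factors Emx1 and Dlx5 are listed at 0 in all 6 libraries. The groups are therefore called by their labels only.

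The 9 genes lay at 3 levels. Mbp and Pdgfra measured between 5.93 and 9.59 FPKM, Cspg4, Mog and Mag stayed below 1 FPKM, and Sox10, Olig1, Gpr17 and Olig2 lay near or at 0. Together they summed to 15.1 to 18.8 FPKM per library, which is 0.00374% to 0.00437% of all FPKM. Mbp and Pdgfra made up 86.9% to 92.1% of that sum, and the other 7 genes reached 1.38 to 2.06 FPKM in total. In the mean over all libraries, 65.6% of the rows of the series were lower than Mbp and 62.5% were lower than Pdgfra.

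**Figure D1:**
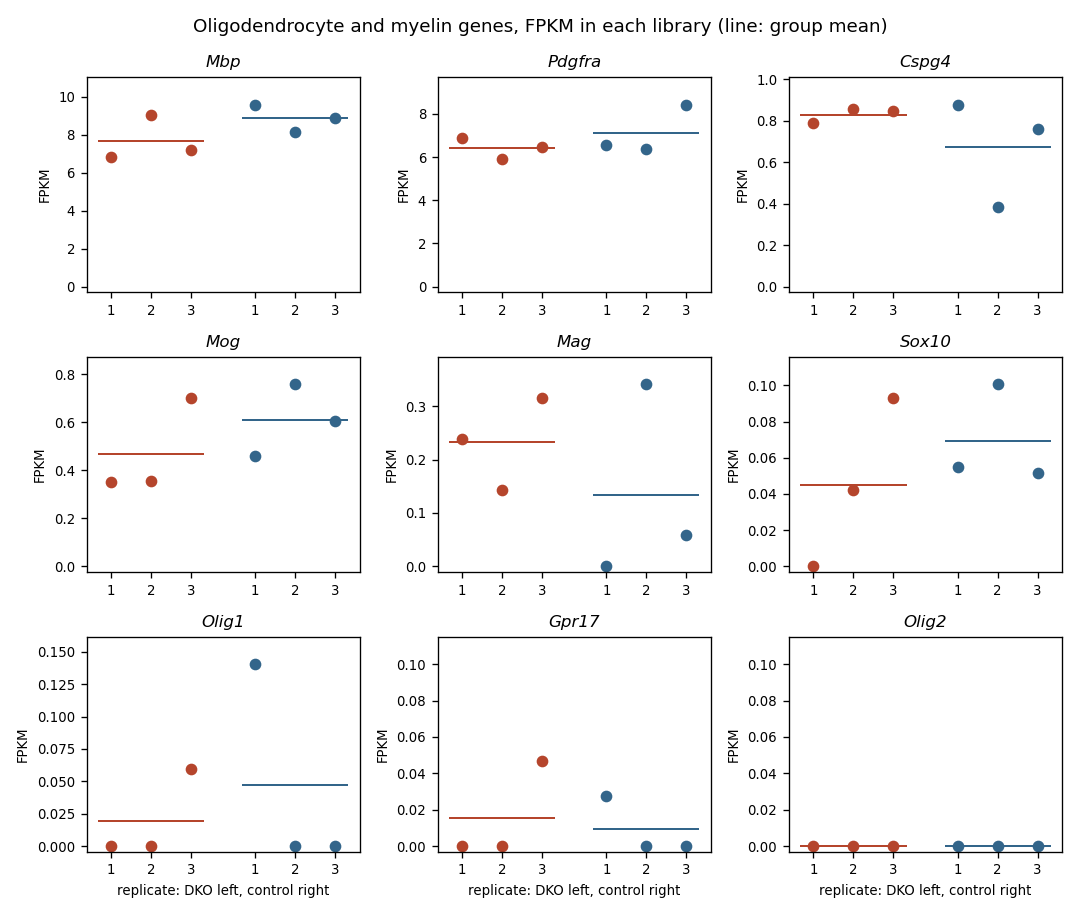
FPKM (vertical axis, linear, with its own scale for each gene) of the 9 genes in the 6 libraries, with DKO replicates in red on the left, control replicates in blue on the right and a line at the mean of each group of 3. The groups overlap for all 8 genes that have a value above 0, and Olig2 is at 0 in all 6 libraries.

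Olig2, the factor that specifies the lineage, is listed at 0 in all 6 libraries (GRCm38 chromosome 16, 91225457 to 91228677, 1 annotated transcript). Of the 24346 rows of the series, 5766 (23.7%) are listed at 0 in all 6 libraries. An exact 0 can be a failed estimate. Of 80 ribosomal protein rows, 2 are also listed at 0 in all 6 libraries, while none of 15 other housekeeping rows was at 0 in any library, with a lowest value of 5.10 FPKM. For a transcript of 2530 bases, a floor of 3 fragments comes to 0.147 to 0.191 FPKM over the 6 libraries, and an Olig2 level below this could have been missed. Pdgfra, at the other end of the range among the progenitor genes, has its start on chromosome 5. The 250 bases before the RefSeq start of both genes (GRCm38.p6) are shown to set the sequences at the progenitor genes of lowest and highest listed level side by side, with each CG dinucleotide in capitals.
Olig2, chr16:91225300-91225549, plus strand: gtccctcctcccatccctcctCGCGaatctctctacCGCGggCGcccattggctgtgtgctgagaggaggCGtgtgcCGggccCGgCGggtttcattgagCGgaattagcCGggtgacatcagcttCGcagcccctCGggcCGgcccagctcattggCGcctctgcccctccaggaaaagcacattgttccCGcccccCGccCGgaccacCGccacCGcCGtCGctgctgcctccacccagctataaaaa
Pdgfra, chr5:75152001-75152250, plus strand: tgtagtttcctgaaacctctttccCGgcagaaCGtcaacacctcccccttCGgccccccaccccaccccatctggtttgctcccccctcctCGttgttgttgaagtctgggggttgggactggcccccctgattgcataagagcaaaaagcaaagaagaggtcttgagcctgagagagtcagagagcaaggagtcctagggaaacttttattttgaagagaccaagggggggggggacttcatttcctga
The Olig2 stretch holds 22 CG and the Pdgfra stretch 4. Over 32851 promoters of the same length the median was 6, with quartiles of 2 and 16, and 13.3% held more than Olig2 while 55.6% held more than Pdgfra. CG reads the same on both strands, and these counts describe the letters only. A promoter sequence was matched for 5 of the 9 genes.

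Olig1, the paralogue that lies 41.1 kb from Olig2 (chromosome 16, 91269772 to 91271933), had a value in 2 libraries. It measured 0.0594 FPKM in DKO replicate 3 and 0.141 FPKM in control replicate 1, and is listed at 0 in the other 4. Each group thus held 1 library above 0 and 2 at 0. The difference was within that spread (2-sided exact permutation test, p = 1.0). With 3 libraries against 3 this test cannot give a p below 0.1.

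Sox10, which keeps cells in the lineage and activates myelin genes, was barely above 0 (chromosome 15, 79154908 to 79165240). The DKO replicates 1, 2 and 3 measured 0, 0.0425 and 0.0930 FPKM, and the control replicates 0.0550, 0.101 and 0.0518 FPKM. DKO replicate 1 was lowest and control replicate 2 highest, with the other 4 between them from both groups. The 2-sided exact permutation test gave p = 0.4.

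Pdgfra, the receptor through which PDGF keeps progenitors dividing, was the highest of the 5 progenitor genes in all 6 libraries (chromosome 5, 75152292 to 75198215). The DKO replicates measured 6.90, 5.93 and 6.47 FPKM, and the control replicates 6.56, 6.35 and 8.43 FPKM. Control replicate 3 was high, while the other 5 libraries of both groups lay close together. The means were 6.43 ± 0.489 FPKM in DKO and 7.11 ± 1.14 FPKM in control (SD, n = 3 each).

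Pdgfra is also a marker of fibroblasts and is used by retinal astrocytes, so markers of both were read beside it. The 8 fibroblast markers, Pdgfra included, summed to 13.0 to 14.5 FPKM in DKO and 17.9 to 18.6 FPKM in control. Pdgfra itself had the highest mean of the 8, at 6.77 FPKM over all libraries, so this sum cannot be read apart from it. Lum was at 0 in all but control replicate 1 and Dcn at 0 in control replicates 1 and 2. The collagens Col1a2 (3.80 against 3.79 FPKM) and Col3a1 (1.55 against 1.56 FPKM) had nearly equal means in DKO and control (n = 3 each). The other collagen of the list, Col1a1, had means of 0.114 against 0.195 FPKM, with all DKO libraries below all controls. It was under the tested level. Fbln1 had 0.720 against 1.69 FPKM and Dcn 0.122 against 0.0546 FPKM. The microfibril gene Mfap4 measured 0.973 ± 0.214 FPKM in DKO and 3.80 ± 1.13 FPKM in control (SD, n = 3 each; limma with Benjamini-Hochberg adjustment, adjusted p = 0.158). The 9 astrocyte markers summed to 338 to 357 FPKM in DKO and 336 to 351 FPKM in control. Most of this sum was Aldoc, Slc1a3 and Slc1a2, with means of 144, 97.4 and 52.0 FPKM over all libraries. Slc1a2 had means of 57.8 FPKM in DKO and 46.2 FPKM in control (n = 3 each; limma, adjusted p = 0.142). Aldh1l1 went the other way, at 5.86 and 6.72 FPKM (n = 3 each; limma, adjusted p = 0.641). Pax2, a factor of optic nerve and retinal astrocytes, measured 0.460 to 1.07 FPKM. Gfap was highest in control replicate 3, at 36.2 FPKM, which is also the library with the highest Pdgfra. Gfap followed at 20.2 FPKM in DKO replicate 1, and the other 4 libraries were lower. The list was mixed in control replicate 3. Aldh1l1 was also at its highest there, at 6.90 FPKM. Pax2, Aqp4 and Aldoc were at their lowest there, at 0.460, 16.8 and 135 FPKM. The part of these cells in the Pdgfra level was not tested. In bulk tissue, fewer cells of a type and less RNA per cell cannot be told apart.

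Cspg4, the NG2 proteoglycan of the progenitor surface, measured 0.788, 0.853 and 0.845 FPKM in the DKO replicates and 0.877, 0.385 and 0.760 FPKM in the control replicates (chromosome 9, 56865033 to 56899870). Control replicate 2 was low, and the other 5 libraries lay within a narrow range that held both groups. The 2-sided exact permutation test gave p = 0.5. NG2 is also made by pericytes, the contractile cells of capillaries. The 11 pericyte markers, Cspg4 included, summed to 258 to 267 FPKM in DKO and 227 to 256 FPKM in control, none at 0 in any library. Their most abundant gene was Vtn, at 187 to 216 FPKM, which makes up most of the sum. Of the 7 tested pericyte markers, the log2 fold change was above 0 for 3 and below 0 for 4, and none passed the threshold. The part of pericytes in the Cspg4 level was not tested.

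Gpr17, the receptor of the committed stage, measured 0.0467 FPKM in DKO replicate 3 and 0.0276 FPKM in control replicate 1. It is listed at 0 in the other 4 libraries, and the 2 libraries above 0 are the same as for Olig1. The 2-sided exact permutation test gave p = 1.0.

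Mbp, the protein that compacts the myelin membrane, was the highest of the 9 genes. The DKO replicates measured 6.80, 9.02 and 7.21 FPKM, and the control replicates 9.59, 8.13 and 8.86 FPKM. DKO replicates 1 and 3 lay below all controls, and DKO replicate 2 lay among them. The means were 7.68 ± 1.18 FPKM in DKO and 8.86 ± 0.731 FPKM in control (SD, n = 3 each). The annotation gives 16 Mbp transcripts, of which 4 begin at upstream starts up to 79.3 kb before the first of the others. Such upstream transcripts are known as Golli and are made by neurons and other cells that form no myelin. The values are per gene, so the transcripts were not told apart here.

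Mag, an adhesion protein on the inner face of myelin next to the axon, measured 0.237, 0.144 and 0.315 FPKM in the DKO replicates and 0, 0.341 and 0.0585 FPKM in the control replicates (chromosome 7, 30899176 to 30914873). Controls held both the highest and the lowest library (2-sided exact permutation test, p = 0.5). Mog, a protein of the outermost myelin surface, measured 0.352, 0.356 and 0.700 FPKM in DKO and 0.461, 0.758 and 0.607 FPKM in control (chromosome 17, 37010743 to 37023398). DKO replicates 1 and 2 lay below all controls, and DKO replicate 3 lay among them (same exact permutation test, p = 0.3).

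The order of levels from Mbp down was Pdgfra, Cspg4, Mog, Mag, Sox10, Olig1, Gpr17 and Olig2. The ranges of neighbours overlapped except at 2 places, between Pdgfra and Cspg4 and between Mog and Mag. Mbp was above Pdgfra in 5 of 6 libraries, Cspg4 above Mog in 5 and Mag above Sox10 in 5. The last 4 genes rest on too few fragments for an order among them.

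The depth behind the low values was read from their steps. The rows used were 3779 rows below 1 FPKM with 2 or more values above 0. Of these, 92.5% held values that are whole multiples, within 0.1%, of 1 smallest value after scaling for relative depth. Multiples up to 100 were allowed, which a row with only 2 values can often meet, so this share is no test of the reading. The smallest value was taken as the value of 1 fragment. Read this way, Cspg4 rested on 47, 63 and 57 fragments in DKO and 50, 24 and 46 in control. Mog rested on 4, 5 and 9 against 5, 9 and 7, and Mag on 4, 3 and 6 against 0, 6 and 1. Sox10 came to 3 fragments in all of DKO and 4 in all of control, Olig1 to 1 and 2, and Gpr17 to 2 and 1. The 95% Poisson intervals, which cover counting error only, were 10.7 to 28.4 for the 18 Mog fragments of DKO and 13.0 to 32.1 for the 21 of control. For Cspg4 they were 143 to 194 for 167 fragments and 99.5 to 143 for 120. A floor of 3 fragments comes to 0.163 to 0.211 FPKM for Olig1 and 0.0640 to 0.0828 FPKM for Gpr17, so all values of these 2 genes lie under it.

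**Figure D2:**
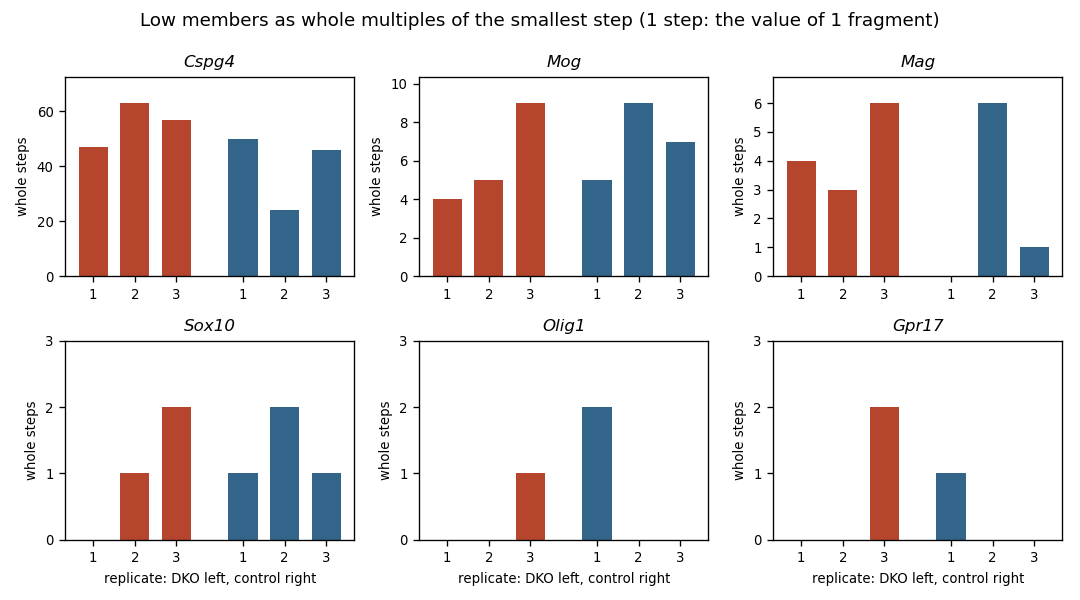
Number of whole steps (vertical axis, linear from 0, where 1 step is the value taken as 1 fragment) in each library for the 6 genes that were above 0 but under the tested level, with DKO replicates in red on the left and control replicates in blue on the right. Cspg4 reaches 24 to 63 steps, Mog and Mag stay at 9 or fewer, and Sox10, Olig1 and Gpr17 do not pass 2 in any library.

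The comparison of DKO with control asks whether loss of both microRNA genes goes with a change in these genes. None of the 9 changed detectably. Only Mbp and Pdgfra had the mean of at least 1 FPKM needed to enter the test across 13215 rows. Neither passed the Benjamini-Hochberg threshold of 0.05 in limma (0 of 2, against 0.0227% of all tested rows) or an unadjusted p of 0.05 (0 of 2, against 7.88%). Nor was either free of overlap between the groups (0 of 2, against 13.9%). On the log2(FPKM + 1) scale, which understates changes of low genes, the log2 fold change of Mbp was -0.19 with a 95% confidence interval of -0.44 to 0.06 (limma, Benjamini-Hochberg adjusted p = 0.740). That of Pdgfra was -0.12 with an interval of -0.38 to 0.14 (limma, adjusted p = 0.840). The median over all tested rows was -0.0016. Without DKO replicate 2 the Mbp value was -0.30 with an interval of -0.53 to -0.066, which passed an unadjusted p of 0.05 (limma, unadjusted p = 0.0190, Benjamini-Hochberg adjusted p = 0.786), so that 1 of 2 genes did. Without control replicate 3 the Pdgfra value was -0.0063 (limma, adjusted p = 0.997). With no filter on level, the 6 low genes above 0 had adjusted p-values of 0.855 to 0.979 in limma over 18580 rows.

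Further genes of the lineage were read from 4 lists of 80 genes in all, of which 54 were tested. None passed the threshold in either direction. The log2 fold change was above 0 for 21 and below 0 for 33, with a median of -0.016. An unadjusted p under 0.05 was seen for 3 (5.56%) and groups without overlap for 6 (11.1%), both shares below those of all tested rows given above. Adjusted p-values in limma ranged from 0.290 to 0.999.

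Of 14 other progenitor markers, 9 were tested, and Nkx2-2, a factor of the lineage, and Neu4 are listed at 0 in all 6 libraries. The most abundant was C1ql1, a secreted synaptic protein, at 83.3 ± 2.78 FPKM in DKO and 75.4 ± 6.08 FPKM in control (SD, n = 3 each), with an adjusted p of 0.639 in limma. Cacng4, Pcdh15 and Lhfpl3, which neurons or sensory cells also use, followed with group means between 21.9 and 50.5 FPKM. Ptprz1, a receptor phosphatase of progenitors and other glia, measured 12.0 ± 0.569 FPKM in DKO and 14.0 ± 1.36 FPKM in control without overlap (SD, n = 3 each; limma, adjusted p = 0.595). These 5 genes were above Olig1, Olig2 and Sox10 in all 6 libraries.

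Of 13 genes of the committed stage, 10 were tested. Myrf, the factor that starts the myelin programme, measured 0.510 ± 0.0708 FPKM in DKO and 0.481 ± 0.176 FPKM in control (SD, n = 3 each), which was under the tested level. Sirt2, a deacetylase found in many cells, was highest at 85.6 ± 1.74 and 83.4 ± 2.59 FPKM (SD, n = 3 each). Fyn, a kinase, and the zinc finger factors Zfp488 and Zfp536 had group means between 20.8 and 27.8 FPKM, and Zfp488 had the smallest adjusted p of the list (0.712 in limma).

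Of 27 other genes of myelin and mature oligodendrocytes, 13 were tested and 14 had a mean under 1 FPKM. Cnp, a myelin enzyme, measured 14.4 ± 1.09 FPKM in DKO and 14.4 ± 1.38 FPKM in control (SD, n = 3 each; limma, adjusted p = 0.992). Mobp was above 0 in DKO replicate 1 only, at 0.0439 FPKM, and Klk6 is listed at 0 in all libraries. The highest means were those of Plekhb1, a membrane protein that photoreceptors also make, and Car2, a carbonic anhydrase of several cell types, at 547 ± 41.7 and 307 ± 15.9 FPKM in DKO (SD, n = 3 each). Controls had 586 ± 58.0 FPKM of Plekhb1 and 307 ± 4.04 FPKM of Car2 (SD, n = 3 each). Gpr37 and Enpp2 came next, with group means of 83.2 to 88.2 and 17.8 to 18.4 FPKM.

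The smallest p-values of the myelin list belonged to Omg and Pllp, and neither passed after adjustment. Omg, a protein of myelin and neurons that inhibits axon growth, measured 9.80, 10.1 and 10.3 FPKM in the DKO replicates and 12.7, 12.2 and 13.1 FPKM in the control replicates. All 3 DKO libraries lay below all controls, and the log2 fold change was -0.31 with an interval of -0.45 to -0.16 (limma, unadjusted p = 0.00115, Benjamini-Hochberg adjusted p = 0.290). Among 8 markers of mature neurons, 5 were likewise lower in DKO without overlap and 1 was higher. Of all tested rows, 13.9% were without overlap in either direction. The 5 were Snap25, Tubb3 and the neurofilament genes Nefl, Nefm and Nefh. Map2 was higher, and Syt1 and Rbfox3 overlapped. None of the 8 passed the adjusted threshold. These 8 summed to 1466 to 1518 FPKM in DKO and 1595 to 1657 FPKM in control, with none at 0, and the part of neurons in the Omg level was not tested. Pllp, a membrane protein of myelin and epithelia, measured 2.04, 1.96 and 1.94 FPKM in DKO and 1.48, 1.35 and 1.08 FPKM in control. Here all DKO libraries lay above all controls, with a log2 fold change of 0.38 and an interval of 0.11 to 0.65 (limma, unadjusted p = 0.0126, adjusted p = 0.507).

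Of 26 ligands, receptors and inhibitors of the lineage, 22 were tested. Pdgfa, the ligand of Pdgfra, measured 8.27 ± 1.23 FPKM in DKO and 7.83 ± 1.23 FPKM in control (SD, n = 3 each; limma, adjusted p = 0.936). The related receptor Pdgfrb measured 5.75 ± 0.653 and 5.96 ± 0.161 FPKM (SD, n = 3 each; limma, adjusted p = 0.937). Rtn4, the myelin inhibitor Nogo, was the most abundant at group means of 122 and 129 FPKM, and its receptor Rtn4r had means of 3.64 and 4.34 FPKM. Id4, Lingo1 and Igf1r, which restrain or promote differentiation, lay between 20.8 and 31.5 FPKM in group means. Among these 26 genes, Igf1r had the smallest adjusted p (0.662 in limma).

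Mbp and Sox10 are also made by Schwann cells of peripheral nerves. Pmp22, a peripheral myelin protein that many other cells also make, measured 11.3 ± 2.19 FPKM in DKO and 12.1 ± 0.935 FPKM in control (SD, n = 3 each; limma, adjusted p = 0.894). The 9 Schwann cell markers, Mbp and Sox10 included, summed to 19.7 to 24.9 FPKM in DKO and 24.4 to 26.9 FPKM in control, and 5 of them had a mean under 1 FPKM. The part of Schwann cells in these levels was not tested.

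**Figure D3:**
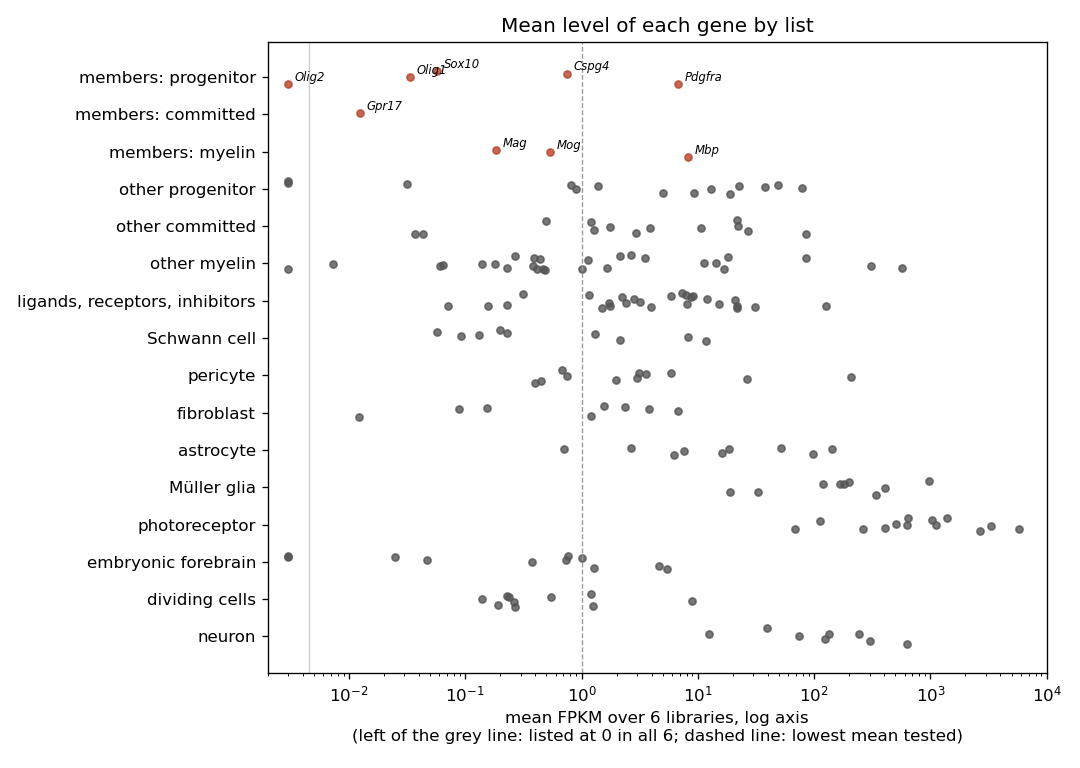
Mean FPKM over the 6 libraries (horizontal log axis) of each gene, 1 point per gene and 1 line per list, with the 9 genes described here in red and the vertical position within a line drawn at random. Photoreceptor genes fill the right side, while 7 of the 9 red points lie left of the dashed line at 1 FPKM and Olig2 stands left of the grey line, where genes listed at 0 in all libraries are placed.

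**Figure D4:**
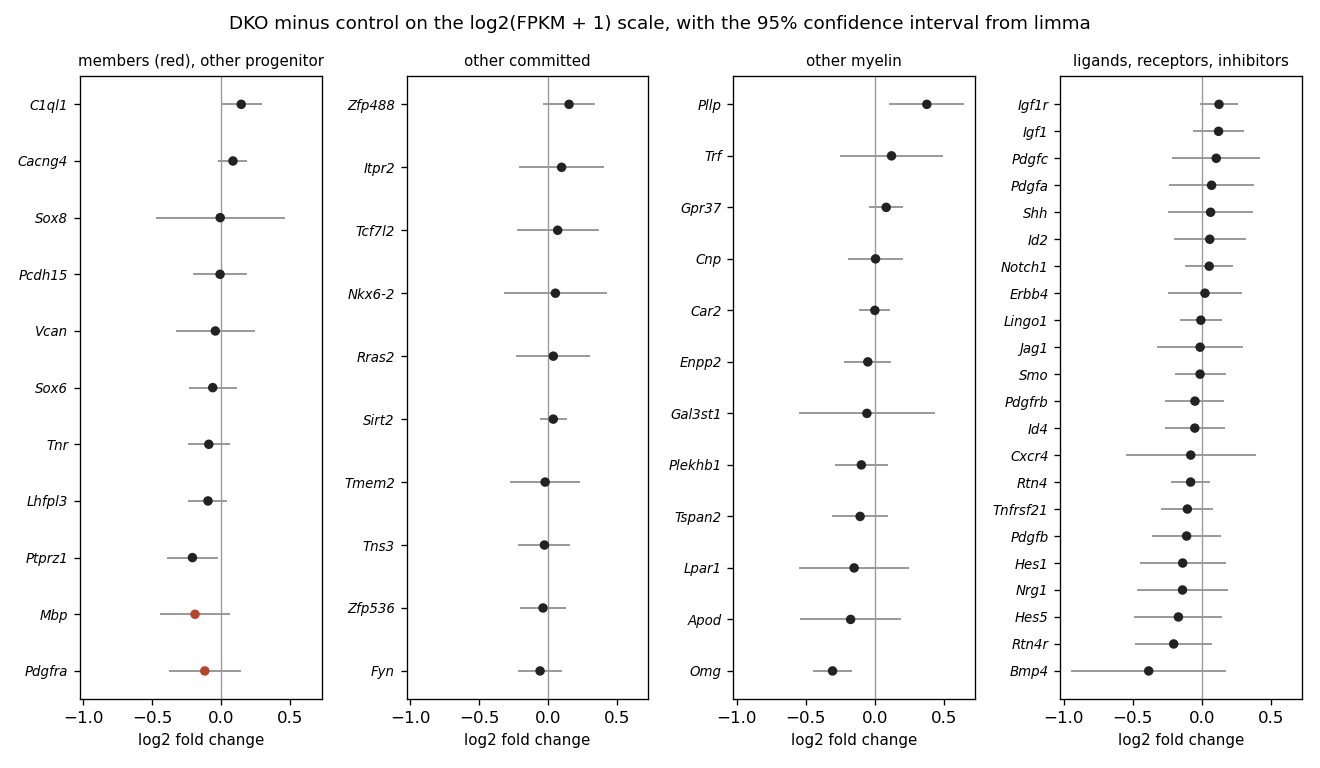
Log2 fold change of DKO against control (horizontal axis, on the log2(FPKM + 1) scale) of Mbp and Pdgfra in red and tested genes of the 4 lists in black, with 95% confidence intervals from limma as lines. The values run from -0.38 (Bmp4) to 0.38 (Pllp), and none passed the adjusted threshold.

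The row whose values followed Pdgfra most closely over the 6 libraries was Srf, a transcription factor, with Pearson's r of 0.991 and Spearman's rank correlation of 0.943 on the log2 scale. For Mbp it was Thsd7a, with r of 0.989 and a rank correlation of 0.943. Each is the highest over all other tested rows, from only 6 libraries that fall into 2 groups. The median of such a highest r over all 13215 tested rows was 0.992, and 58.3% and 70.5% of rows had one at least as high as those of Pdgfra and Mbp.

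Some of the 9 genes overlap others in the annotation on the opposite strand: Olig1 with Gm15966, Mog with Gm22388, Gpr17 with Lims2, Mbp with Rpl21-ps8, and Pdgfra with Gm42802 and Gm42803. The library kit keeps strand, but the counting is not stated to use it, so fragments of such partners may be included in these values.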

How the data were processed

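Per the labels' protocols, TRIzol was used for extraction and a stranded TruSeq kit for the mRNA libraries. The submitters' processing notes name TopHat2 2.1.1, Bowtie2, Cuffdiff 2.2.1 and mm10. The sources used here do not state the annotation, the filters or the scaling. The authors deposited 1 FPKM value per gene symbol and library, per the file headers, which write CKO for the libraries labelled DKO. Total read numbers are not used here. Relative depth came from the steps between low values (multiples up to 100), and 373 genes with 1 transcript gave a median of 0.154 FPKM per fragment at 1 kb.

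Groups follow the labelled genotype. A row was tested where its mean reached 1 FPKM, with limma 3.58.1 (R 4.3.3) on the log2(FPKM + 1) scale (eBayes with a trend, Benjamini-Hochberg over all tested rows, threshold 0.05, no fold limit), after the fit was tested on simulated data. Genes under that level were compared by an exact permutation test, 2-sided, of all 20 ways to assign 3 of the 6 libraries. Python 3.11.15, pandas 2.3.3, NumPy 2.4.6, SciPy 1.17.1 and matplotlib 3.10.9 were used. Loci are from GENCODE M21 and promoters from RefSeq.

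The 9 genes and all lists were chosen with earlier results of these data known. Named from each of the 4 lineage lists are the 4 genes of highest mean and the 2 tested genes of smallest p, with Mobp, Cnp, Myrf, Nkx2-2, Pdgfa, Pdgfrb and Pmp22 in any case. Some genes that this rule takes are not reported here. For Mbp and Pdgfra the row of highest Pearson's r is named. Bmp4, Neu4, Klk6, Emx1, Dlx5, Lum, Dcn, Mfap4, Pax2 and Gfap were named after their values were seen. The same holds for Col1a1, Col3a1, Fbln1, Slc1a2, Aqp4, Aldh1l1, Map2, Tubb3, Nefl, Nefm, Nefh and Rbfox3. Alternatives were other pseudocounts, filters, scalings and variance models, a replicate block, and leaving out each library.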

Additional observations from a re-analysis of the deposited data

How the results depend on the processing

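Over 17 alternatives, neither Mbp nor Pdgfra passed the threshold. The 6 low genes above 0 were tested only with no filter, where none passed, and Olig2 was tested in none. The log2 fold change of Mbp ranged from -0.30 to -0.096 (adjusted p 0.631 to 0.897 in limma) and that of Pdgfra from -0.19 to -0.0063 (adjusted p 0.710 to 0.997), with no change of sign. The number of rows of the series past the threshold was 3. It was 5 with libraries rescaled to a common sum, which moved the median of all rows to 0.03, and 1 with eBayes without a trend. Leaving out each replicate gave 1 to 4, with 1 without control replicate 2, and the cause was not tested. With the replicate number as a block it was 2, and the adjusted p-values of Mbp and Pdgfra were 0.631 and 0.710. The labels do not say whether the numbers pair the libraries, and it is not known from the values. The correlations of same-numbered deviations were 0.07, 0.0063 and 0.10, against -0.12 to 0.036 for the other pairs. Of the 6 libraries, 4 correlated best with their own number.

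Among the genes under the tested level, the value of Olig1 changed sign without control replicate 1 (to 0.03) and that of Gpr17 without DKO replicate 3 (to -0.013). A pseudocount of 0.1 moved the values of all 6, Mag most, to 0.76. This setting also widens the spread between replicates of low genes. Few fragments (0 to 9 per library) limit Mog, Mag, Sox10, Olig1 and Gpr17. The description of microRNA sites and its alternatives were not run, because the sequence of the microRNA was not used here.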
